A study of Homo sapiens with 12 samples.

Results

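Genes for collagens, laminin chains, other matrix glycoproteins and the enzymes that hydroxylate or crosslink collagen were examined in MDA-MB-468 and in the more mesenchymal MDA-MB-231, both cell lines of triple-negative breast cancer, after loss of SMARCA4, the ATPase of the SWI/SNF chromatin remodeling complex. Members were taken by symbol alone: every gene named as a collagen chain (COL and A numbers), a laminin chain (LAMA, LAMB or LAMC), a lysyl hydroxylase (PLOD) or a lysyl oxidase (LOX, LOXL), together with FN1, TNC, SPARC, THBS1, HSPG2, AGRN, NID1, NID2 and FBLN1. Of the 11529 genes in the deposited table, 38 were members: 14 of the basement membrane, 6 fibrillar or fibril-associated collagens, 7 other collagens, 4 glycoproteins and 7 enzymes. RefSeq lists 73 genes that fit the same rule, and 35 of them, among them COL1A1, COL1A2, COL3A1, SPARC, NID1 and NID2, were not analysed here. The members therefore cover 17 of 44 collagen genes, 8 of 12 laminin chains and 4 of 5 lysyl oxidases.

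The extracellular matrix is the protein scaffold outside the cell. Epithelial cells rest on a basement membrane, a thin sheet in which networks of laminin heterotrimers and type IV collagen are linked by the heparan sulfate proteoglycans perlecan (HSPG2) and agrin (AGRN), and fibroblasts fill the stroma with collagen fibrils. Collagen and laminin chains assemble inside the cell into trimers, lysyl hydroxylases modify the collagen chains there, and lysyl oxidases crosslink them after secretion. Carcinoma cells make matrix of their own, and fibronectin (FN1) and tenascin C (TNC) are among the matrix proteins known to accompany the epithelial-to-mesenchymal transition (EMT) and invasion.

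MDA-MB-468 is a basal-like and MDA-MB-231 a mesenchymal-like human line. From each, RNA of 3 control samples and 3 samples with SMARCA4 KO was sequenced, which gives 12 samples in 4 groups. Control samples are labelled both wild type and control; elsewhere the study sets untreated parental cells apart from control cells with a nontargeting CRISPR vector, and the labels do not say which of these was sequenced. KO samples are polyclonal pools, made with a lentiCRISPR-v2 vector that carries Cas9 and 1 guide RNA against SMARCA4 and selected with puromycin, so that cells with an intact allele may remain and an effect of the guide elsewhere cannot be told apart from the loss of SMARCA4. Nothing in the labels says that the 3 samples of a group came from separate pools, so p-values measure the spread between these samples, which may be technical.

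Values are log2(FPKM + 1), with FPKM the fragments scaled for transcript length and library size, a unit that allows levels of different genes to be compared. A difference of log2 values understates the change of genes at low FPKM. Read depth is unknown, and the smallest nonzero FPKM was 0.01 in every sample. Samples of 1 group correlated at 0.989 to 0.995 across genes, which are not independent replicates. SMARCA4 itself was at 96.9, 97.4 and 101.3 FPKM in the MDA-MB-468 control samples and at 39.7, 43.5 and 47.7 in KO samples, and at 67.5, 71.5 and 67.0 in the MDA-MB-231 control samples and 21.0, 23.9 and 22.6 in KO samples. Its log2 value differed by -1.16 (standard error 0.08, adjusted p = 0.014) and -1.57 (standard error 0.06, adjusted p = 0.0014), respectively, and no KO sample reached a control sample. Each of 7 markers of MDA-MB-468, among them EGFR, KRT5 and CDH1, was higher in its own controls, and 6 of 7 markers of MDA-MB-231, among them VIM and AXL, were higher in MDA-MB-231, CD44 being the exception. Of 12 fibroblast markers only S100A4 and of 9 endothelial and leukocyte markers only CD14 was among the genes analysed.

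Before any loss of SMARCA4, the cell lines differed in nearly all of these genes. Of the 38 members, 31 were called lower and 4 higher in control cells of MDA-MB-468 than of MDA-MB-231, and 3 were not called. A call required an adjusted p under 0.05 (limma, Benjamini-Hochberg adjustment over all genes) and an absolute log2 difference over 0.5. This comparison called 64.1% of all genes, 32.7% higher and 31.4% lower in MDA-MB-468, and the authors' filter on variability over the 12 samples favours genes that differ between the cell lines. The median log2 difference of the members was -2.40, against 0.01 for all genes. In 31 members the MDA-MB-468 control samples all lay below and in 6 all above those of MDA-MB-231, where 42.3% and 43.2% of all genes did, and 37 reached an unadjusted p under 0.05, where 84.5% of all genes did. Summed over the members, the control samples held 857 to 881 FPKM in MDA-MB-468 and from 2018 to 2075 FPKM in MDA-MB-231.

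The members with the highest mean level in MDA-MB-468 control cells were fibulin 1 (FBLN1), a calcium-binding glycoprotein of basement membranes and elastic fibers, agrin and the laminin α5 chain LAMA5. FBLN1 was at 217.5, 212 and 205 FPKM there and at 4.44, 3.0 and 2.05 FPKM in MDA-MB-231 control cells, a log2 difference of 5.72 (standard error 0.19, adjusted p = 4.8e-08). AGRN was at 161, 149 and 156 FPKM in MDA-MB-468 and at 115, 113 and 113 FPKM in MDA-MB-231 control cells, and LAMA5 at 124, 129 and 131 FPKM against 85.2, 109 and 112. These levels of AGRN and LAMA5 did not overlap, but their log2 differences of 0.45 (standard error 0.07, adjusted p = 0.00033) and 0.33 (standard error 0.11, adjusted p = 0.023) missed the limit of 0.5. LAMB2 (72.5 ± 4.18 FPKM, SD, n = 3) and PLOD2 (36.1 ± 1.88 FPKM, SD, n = 3) were the members next in order.

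In MDA-MB-231 control cells the highest means were those of thrombospondin 1 (THBS1), a glycoprotein that binds cells and growth factors, at 273, 258 and 242 FPKM, and of LAMB3, a β chain of epithelial laminin, at 181, 173 and 153 FPKM. LOXL2 (155 ± 15 FPKM, SD, n = 3), LAMB2 (145 ± 12 FPKM, SD, n = 3) and FN1 (144 ± 3.39 FPKM, SD, n = 3) followed. The same 5 genes had means of 25.3, 9.49, 23.9, 72.5 and 15.2 FPKM in MDA-MB-468 control cells. Every sample of MDA-MB-231 lay above every sample of MDA-MB-468 for each of them.

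**Figure D1:**
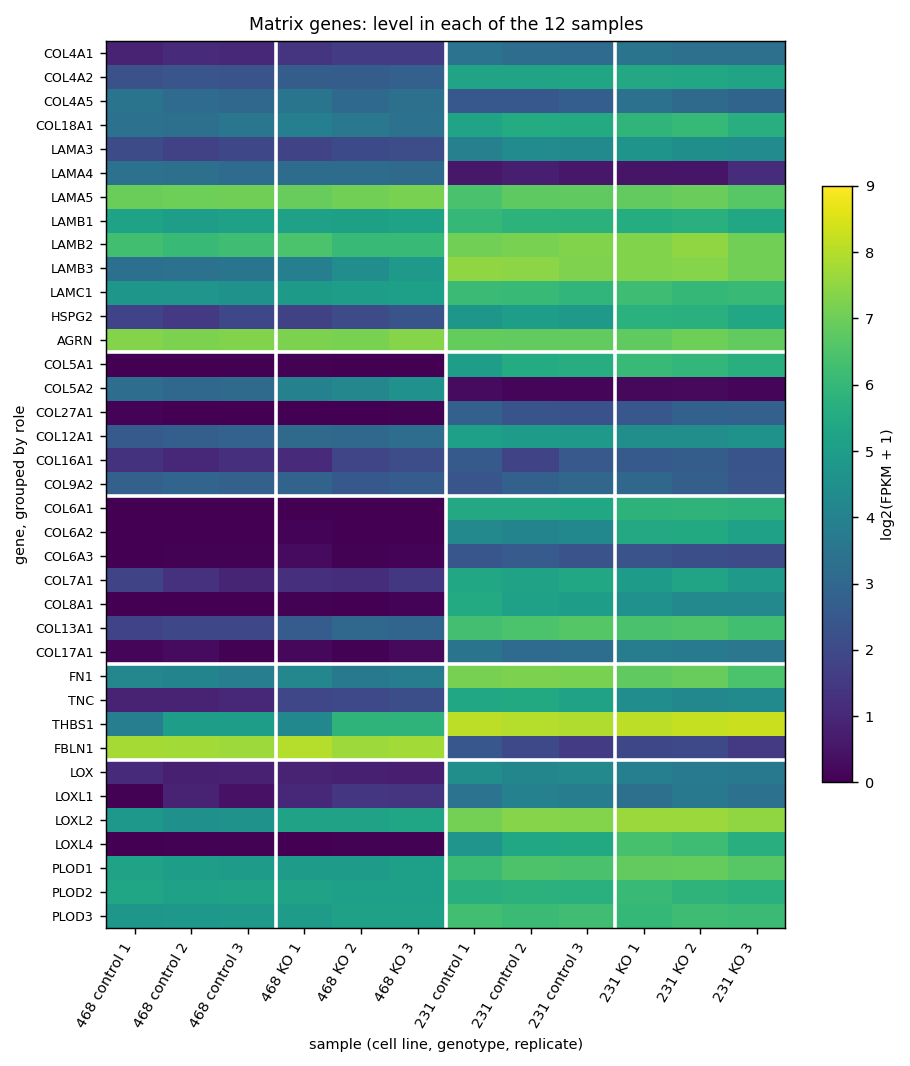
Level of the matrix genes (rows, grouped by role, white lines between roles) in each of the 12 samples (columns, white lines between groups), as log2(FPKM + 1) from 0 in dark violet to 9 in yellow. The left block of MDA-MB-468 samples is darker than the right block of MDA-MB-231 samples in most rows, with FBLN1, LAMA4, COL5A2 and COL4A5 as called exceptions.

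Chains of 1 trimer were not always present together. Type V collagen, which regulates the diameter of collagen fibrils, is built from the α1 chain COL5A1 with or without the α2 chain COL5A2. COL5A1 was listed at 0 in all 3 MDA-MB-468 control samples and at 31.2, 45.7 and 47.3 FPKM in those of MDA-MB-231, whereas COL5A2 was at 8.27, 7.10 and 7.66 FPKM in MDA-MB-468 and at 0.19, 0.11 and 0.12 FPKM in MDA-MB-231 control cells. Type VI collagen, which forms beaded microfibrils, needs its α1, α2 and α3 chains. COL6A1 and COL6A2 were listed at 0 in all 3 MDA-MB-468 control samples and COL6A3 was at 0.04 FPKM or below, while in MDA-MB-231 control cells their means were 41.6, 16.9 and 4.40 FPKM. In all, 12 members had a mean under 1 FPKM in MDA-MB-468 control cells and 2 in MDA-MB-231 control cells.

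After SMARCA4 KO, TNC rose in MDA-MB-468 KO cells and fell in those of MDA-MB-231, and was the only member called in both cell lines. In MDA-MB-468 cells 5 of the 38 members were called, all of them higher in KO cells: TNC, COL5A2, COL13A1, LOXL2 and COL4A1. This comparison called 2.14% of all genes, 1.33% higher and 0.815% lower. At an unadjusted p under 0.05 there were 11 members, all higher, where 25.1% of all genes reached it, and in 13 members all KO samples lay above and in 0 all below the control samples, where 17.5% and 13.5% of all genes did. The median log2 difference of the members was 0.07, against 0.02 for all genes, so that the typical member moved little.

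The MDA-MB-468 calls were lost in most fits with 1 sample fewer, by the adjusted p more than by the size of the differences. Deviations of same-numbered control and KO samples of this cell line correlated weakly, at 0.15 to 0.28 across genes. A fit blocked by replicate number called 3 members, with COL5A2 (adjusted p = 0.057) and LOXL2 (adjusted p = 0.061) lost. The fit without control replicate 1, 2 or 3 or without KO replicate 2 or 3 called 0 members, with 11 or 12 at an unadjusted p under 0.05, and called 0 to 27 of all genes. Without KO replicate 1 it called 7, the same 5 with LAMB3 and COL16A1, and 474 of all genes. Over these 6 fits the log2 difference was 1.04 to 1.18 for TNC, 0.96 to 1.25 for COL5A2, 0.87 to 1.07 for COL13A1 and 0.54 to 0.67 for LOXL2. For COL4A1 it was 0.48 to 0.61, and in 3 of the 6 fits not over the limit of 0.5.

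In MDA-MB-231 cells 5 members were called as well. COL6A2 and HSPG2 were higher, and TNC, COL8A1 and LOX were lower in KO cells. This comparison called 3.7% of all genes, 2.39% higher and 1.31% lower. At an unadjusted p under 0.05 there were 18 members, 11 higher and 7 lower, where 31.2% of all genes reached it, and in 12 members all KO samples lay above and in 7 all below the control samples, where 16.6% and 19.4% of all genes did. The median log2 difference of the members was 0.09, against -0.01 for all genes. Leaving out 1 sample at a time gave 2 to 4 called members: 2 without control replicate 1 and without KO replicate 1 or 2, 3 without control replicate 2 or 3, and 4 without KO replicate 3. COL6A2 and TNC were called in 6 of 6 of these fits, HSPG2 in 2 of 6 (without control replicate 2 and without KO replicate 3), and COL8A1 and LOX in 0 of 6. The fit blocked by replicate number called 0 members and 0 of all genes in this cell line. Its adjusted p was 0.071 for COL6A2, TNC and LOX, 0.064 for COL8A1, 0.082 for HSPG2 and 0.052 for SMARCA4 itself.

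**Figure D2:**
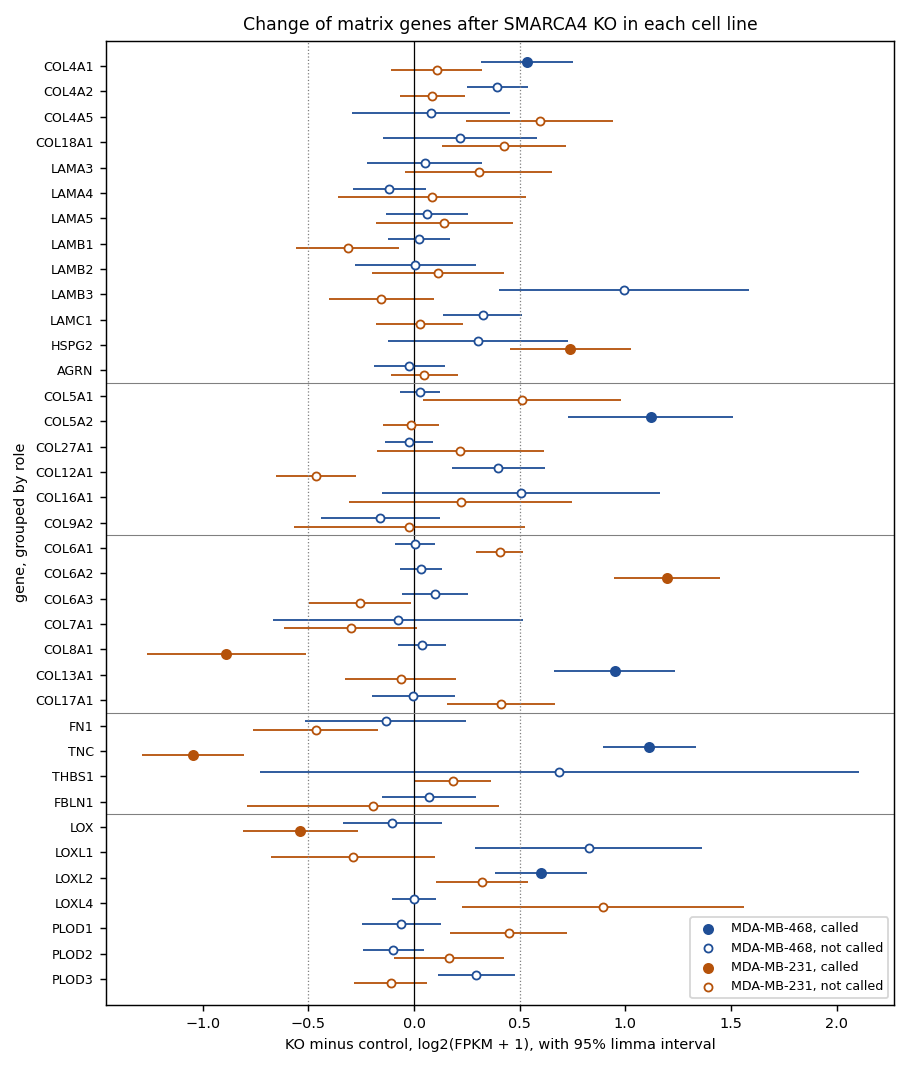
KO minus control difference in log2(FPKM + 1) for the matrix genes, in MDA-MB-468 (blue) and MDA-MB-231 (orange); points are the limma estimates, bars their 95% intervals, filled points the genes called, dotted lines the limit of 0.5 in either direction. TNC stands at 1.11 in the first and -1.04 in the second, and most other genes of both cell lines lie between the dotted lines.

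Among basement membrane genes, the α1 chain of type IV collagen, the network that gives the membrane its strength, was called higher in MDA-MB-468 KO cells. COL4A1 (GRCh37 chr13:110801310-110959504, minus strand) was at 0.86, 1.10 and 1.02 FPKM in control and 1.58, 2.03 and 2.06 FPKM in KO cells, a log2 difference of 0.53 (standard error 0.09, adjusted p = 0.039, and 0.046 with the replicate block). Its partner COL4A2 (chr13:110958159-111165556, plus strand) was at 3.67, 4.12 and 3.94 FPKM in control and 5.23, 5.36 and 5.77 FPKM in KO cells, and its log2 difference of 0.39 (standard error 0.06, adjusted p = 0.033) missed the limit of 0.5. The KO samples lay above the control samples for both genes. Both are low in this cell line. In MDA-MB-231 cells their samples overlapped between control and KO, with log2 differences of 0.11 (standard error 0.09, adjusted p = 0.45) and 0.09 (standard error 0.06, adjusted p = 0.40). COL4A5, the α5 chain, was at 4.52, 4.51 and 5.5 FPKM in MDA-MB-231 control cells and 9.49, 7.67 and 6.47 FPKM in KO cells. All 3 KO samples lay above the controls, but the log2 difference of 0.59 (standard error 0.14, adjusted p = 0.052) was not called, though it was in 3 of 12 alternatives, among them scaling to the same 75th percentile of FPKM.

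COL4A1 and COL4A2 lie head to head on opposite strands and are transcribed away from each other. In the GENCODE annotation their spans overlap, and whether reads were counted by strand is not given in the sources used here, so reads near the starts may be split between them. The stretch between their RefSeq starts is shown because both genes are transcribed away from it; it is 126 bases long with 80.2% G and C (RefSeq, GRCh38.p14, chr13:110307158-110307283, plus strand, COL4A2 to the right), and the capitals mark the only CCAAT on either strand, at bases 22 to 26.
COL4A1 to COL4A2: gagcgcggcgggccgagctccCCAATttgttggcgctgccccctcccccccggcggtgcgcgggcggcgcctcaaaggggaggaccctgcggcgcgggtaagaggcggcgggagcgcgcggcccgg
The ratio of COL4A2 to COL4A1 was 4.27, 3.75 and 3.86 in MDA-MB-468 control and 3.31, 2.64 and 2.80 in KO cells, lower in every KO sample than in any control sample. The difference of -1.04 had an exact two-sided permutation p of 0.1, the smallest that 3 samples against 3 allow. In MDA-MB-231 cells the ratio was 4.40 ± 0.57 and 4.28 ± 0.19 (SD, n = 3), with an exact permutation p of 0.8.

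LAMA3 and LAMB3 encode an α and a β chain of the laminin of the epidermal and mammary basement membrane. LAMB3 (chr1:209788215-209825770) was at 8.75, 9.39 and 10.3 FPKM in MDA-MB-468 control and 13.9, 20.3 and 27.7 FPKM in KO cells. The groups did not overlap, but the KO samples were far apart, and the log2 difference of 0.99 (standard error 0.24, adjusted p = 0.077) was not called. LAMA3 had a log2 difference of 0.05 (standard error 0.11, adjusted p = 0.82). The ratio of LAMA3 to LAMB3 was 0.376, 0.259 and 0.279 in control and 0.188, 0.151 and 0.121 in KO cells, so that the groups did not overlap (exact permutation p of 0.1, the smallest possible). In MDA-MB-231 cells LAMB3 was at 169 ± 14.1 FPKM in control and 152 ± 15.6 FPKM in KO cells (SD, n = 3), a log2 difference of -0.16 (standard error 0.10, adjusted p = 0.35). There the ratio of LAMA3 to LAMB3 was 0.104 ± 0.0232 in control and 0.142 ± 0.0119 in KO cells (SD, n = 3, exact permutation p of 0.1, the smallest possible), higher in KO cells without overlap. The KO change of LAMB3 differed between the cell lines by 1.15 (standard error 0.26, adjusted p = 0.017).

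Perlecan (HSPG2, chr1:22148737-22263803), which joins the laminin and collagen networks and binds growth factors, was at 26, 30.9 and 28 FPKM in MDA-MB-231 control and 52.3, 51.1 and 40.9 FPKM in KO cells. Every KO sample lay above every control sample, with a log2 difference of 0.74 (standard error 0.12, adjusted p = 0.022). In MDA-MB-468 cells HSPG2 was at 2.52, 1.86 and 2.86 FPKM in control and 2.46, 3.2 and 4.02 FPKM in KO cells, which overlapped, and the log2 difference was 0.30 (standard error 0.17, adjusted p = 0.33). The difference between the cell lines of -0.44 was not called (standard error 0.21, adjusted p = 0.18). The other basement membrane members, COL18A1, LAMA4, LAMA5, LAMB1, LAMB2, LAMC1 and AGRN, were called in neither cell line. LAMC1, the γ chain shared by most laminins, was among those without overlap in MDA-MB-468, at 26, 25.1 and 23.1 FPKM in control and 28.6, 32.2 and 33.0 FPKM in KO cells, with a log2 difference of 0.33 (standard error 0.08, adjusted p = 0.073).

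Of the fibrillar collagens, COL5A2 (chr2:189896624-190090038) rose in MDA-MB-468 KO cells to 14.6, 17.1 and 22.6 FPKM from the control levels given above. Its log2 difference was 1.12 (standard error 0.16, adjusted p = 0.032, and 0.057 with the replicate block), and KO cells held 236% of the control mean. COL5A1 was at 0.03, 0.01 and 0.02 FPKM in the same KO samples, so that the α2 chain rose where the α1 chain was near 0. In MDA-MB-231 cells COL5A1 was at 65.9, 61.1 and 49.6 FPKM in KO cells, above all 3 control samples, but the log2 difference of 0.51 (standard error 0.19, adjusted p = 0.13) was not called, and COL5A2 stayed between 0.08 and 0.19 FPKM in the 6 samples. The KO change of COL5A2 differed between the cell lines by 1.13 (standard error 0.17, adjusted p = 0.002).

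COL12A1, a fibril-associated collagen that lies between fibrils, differed between the cell lines in its KO change. It was at 4.91, 5.68 and 6.08 FPKM in MDA-MB-468 control and 7.58, 7.05 and 8.26 FPKM in KO cells, and at 32.4, 30.5 and 27.7 FPKM in MDA-MB-231 control and 21.0, 20.7 and 23.1 FPKM in KO cells. Control and KO samples did not overlap in either cell line, but the log2 differences of 0.40 (standard error 0.09, adjusted p = 0.067) and -0.46 (standard error 0.08, adjusted p = 0.025) both missed the call. The difference between them of 0.86 (standard error 0.13, adjusted p = 0.0017) was called. COL27A1, COL16A1 and COL9A2 were called in neither cell line, and COL9A2 was the only member whose control levels missed an unadjusted p of 0.05 between the cell lines, at 6.04 ± 0.47 FPKM in MDA-MB-468 and at 5.73 ± 1.3 FPKM in MDA-MB-231 control cells (SD, n = 3).

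COL6A2 (chr21:47518026-47552762) showed the largest called increase of a member in MDA-MB-231 cells. It was at 17.8, 15.5 and 17.3 FPKM in control and 41.8, 43.5 and 34.7 FPKM in KO cells, which is 237% of the control mean. The lowest KO sample was above the highest control sample, and the log2 difference was 1.20 (standard error 0.10, adjusted p = 0.0078). COL6A1, the neighbouring gene on chromosome 21 (chr21:47401684-47424964), was at 42.2, 41.8 and 40.7 FPKM in control and 55.2, 57.2 and 53.6 FPKM in KO cells. Its groups did not overlap either, but its log2 difference of 0.40 (standard error 0.05, adjusted p = 0.011) missed the limit of 0.5. COL6A3, on chromosome 2, was at 4.30, 4.99 and 3.91 FPKM in control and 3.90, 3.48 and 3.16 FPKM in KO cells, lower in every KO sample, with a log2 difference of -0.26 (standard error 0.10, adjusted p = 0.14). The ratio of COL6A2 to COL6A1 went from 0.421, 0.370 and 0.425 to 0.756, 0.760 and 0.648, and that of COL6A3 to COL6A1 from 0.106 ± 0.012 to 0.063 ± 0.006 (SD, n = 3), each with an exact permutation p of 0.1, the smallest possible. In MDA-MB-468 KO cells COL6A2 was at 0.05, 0.01 and 0.01 FPKM, so the difference in KO change between the cell lines of -1.16 (standard error 0.12, adjusted p = 0.00029) rests on MDA-MB-231.

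The bases upstream of COL6A2 and TNC are shown because these genes had the called KO changes of largest size among the members in MDA-MB-231, in opposite directions. The windows are the 250 bases before the annotated start (RefSeq, GRCh38.p14), read in the direction of transcription, and the capitals mark TATANA, the core of a TATA box.
COL6A2 (chr21:46097862-46098111, plus strand): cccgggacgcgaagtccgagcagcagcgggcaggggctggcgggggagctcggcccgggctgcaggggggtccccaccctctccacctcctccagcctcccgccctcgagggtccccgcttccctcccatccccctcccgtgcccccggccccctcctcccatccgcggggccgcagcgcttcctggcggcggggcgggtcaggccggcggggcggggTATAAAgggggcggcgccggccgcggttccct
TNC (chr9:115118158-115118407, minus strand): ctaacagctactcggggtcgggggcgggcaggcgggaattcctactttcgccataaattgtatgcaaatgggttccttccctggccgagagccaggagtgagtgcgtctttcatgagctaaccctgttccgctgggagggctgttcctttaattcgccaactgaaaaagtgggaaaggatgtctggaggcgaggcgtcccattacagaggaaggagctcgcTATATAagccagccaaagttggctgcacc
The match lies at bases -32 to -27 before the start of COL6A2 and at -29 to -24 before that of TNC, where it reads the same on both strands. G and C make up 79.6% of the first window and 54.8% of the second.

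COL8A1, a short-chain collagen of vessel walls and Descemet's membrane, was at 44.4, 34.9 and 31.8 FPKM in MDA-MB-231 control and 22.7, 17.9 and 17.9 FPKM in KO cells. No KO sample reached a control sample, and the log2 difference was -0.89 (standard error 0.15, adjusted p = 0.027). In the 6 MDA-MB-468 samples it was at 0.07 FPKM or below, so its difference between the cell lines of 0.93 (standard error 0.16, adjusted p = 0.0048) rests on MDA-MB-231 as well. COL13A1 (chr10:71561636-71724031), a transmembrane collagen of cell adhesion sites, was called in MDA-MB-468 cells. It was at 2.49, 2.86 and 2.83 FPKM in control and 5.09, 7.03 and 6.60 FPKM in KO cells, without overlap, a log2 difference of 0.95 (standard error 0.12, adjusted p = 0.024, and 0.045 with the replicate block). In MDA-MB-231 cells COL13A1 was at 87.7 ± 10.3 FPKM in control and 83.7 ± 7.28 FPKM in KO cells (SD, n = 3), with overlapping samples and a log2 difference of -0.06 (standard error 0.11, adjusted p = 0.73), and its KO change differed between the cell lines by 1.01 (standard error 0.16, adjusted p = 0.0028). COL7A1, which forms the anchoring fibrils of the skin, and COL17A1, a hemidesmosomal collagen, were called in neither cell line.

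TNC (chr9:117781854-117880486) encodes tenascin C, a glycoprotein that modulates adhesion and is found in wounds and tumor stroma. It was at 0.82, 0.80 and 1.07 FPKM in MDA-MB-468 control and 2.82, 2.99 and 3.50 FPKM in KO cells, and at 40.7, 43.4 and 35.2 FPKM in MDA-MB-231 control and 20.4, 17.4 and 18.3 FPKM in KO cells. Control and KO samples were apart in both cell lines, in opposite directions, and the highest MDA-MB-468 KO sample was still below the lowest MDA-MB-231 KO sample. KO cells of MDA-MB-468 held 346% of the control mean and those of MDA-MB-231 held 47.1%. The log2 difference was 1.11 in MDA-MB-468 (standard error 0.09, adjusted p = 0.014, and 0.033 with the replicate block) and -1.04 in MDA-MB-231 (standard error 0.10, adjusted p = 0.0082, and 0.071 with the replicate block). The difference between them of 2.16 (standard error 0.14, adjusted p = 1.1e-05) was the largest of the members, and was called in all 17 alternative fits of that comparison.

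Fibronectin (FN1), the ligand of integrin α5β1, was at 141, 148 and 144 FPKM in MDA-MB-231 control and 109.9, 119 and 86.8 FPKM in KO cells. All KO samples lay below the controls, but the log2 difference of -0.47 (standard error 0.12, adjusted p = 0.062) was not called. In MDA-MB-468 cells FN1 was at 15.2 ± 1.85 FPKM in control and 13.9 ± 2.73 FPKM in KO cells (SD, n = 3), a log2 difference of -0.13 (standard error 0.15, adjusted p = 0.63). THBS1 was at 13.3, 31.4 and 31.0 FPKM in MDA-MB-468 control and 17.2, 57.0 and 57.5 FPKM in KO cells. Replicate 1 was the low sample of both groups, and the log2 difference of 0.69 (standard error 0.57, adjusted p = 0.50, and 0.082 with the replicate block) was not called. THBS1 in MDA-MB-231 KO cells, at 273, 293 and 312 FPKM, was above the control samples by 0.18 (standard error 0.07, adjusted p = 0.15). FBLN1 was called in neither cell line.

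Among the enzymes, LOXL2, a lysyl oxidase that crosslinks collagen IV and also acts in the nucleus, was at 26.6, 21.8 and 23.3 FPKM in MDA-MB-468 control and 35.2, 35.4 and 39.3 FPKM in KO cells. The groups did not overlap, and the log2 difference was 0.60 (standard error 0.09, adjusted p = 0.033, and 0.061 with the replicate block). LOXL2 was also higher in every MDA-MB-231 KO sample, at 199, 201 and 180.3 FPKM against 137, 165 and 162 FPKM, but the log2 difference of 0.32 (standard error 0.09, adjusted p = 0.071) was not called, and neither was the difference between the cell lines (0.28, standard error 0.13, adjusted p = 0.18). LOX, the founding member of the family, fell in MDA-MB-231 KO cells. It was at 21.0, 16.4 and 18 FPKM in control and 13.8, 11.8 and 11.5 FPKM in KO cells, without overlap, a log2 difference of -0.54 (standard error 0.11, adjusted p = 0.039), and stayed between 0.68 and 1.15 FPKM in the MDA-MB-468 samples.

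LOXL1, which crosslinks elastin, was at 0.04, 0.80 and 0.35 FPKM in MDA-MB-468 control and 1.07, 1.69 and 1.53 FPKM in KO cells, and at 9.84, 14.5 and 13.2 FPKM in MDA-MB-231 control and 9.09, 11.5 and 9.30 FPKM in KO cells. The MDA-MB-468 groups did not overlap and those of MDA-MB-231 did. Neither change was called, with log2 differences of 0.83 (standard error 0.22, adjusted p = 0.091) and -0.29 (standard error 0.16, adjusted p = 0.27), but the difference between them of 1.12 was (standard error 0.27, adjusted p = 0.020). LOXL4 was at 25.1, 40.6 and 43.0 FPKM in MDA-MB-231 control and 81.9, 72.2 and 49.6 FPKM in KO cells, above all controls, with a log2 difference of 0.89 (standard error 0.27, adjusted p = 0.088) that was not called. In MDA-MB-468 cells it was at 0.03 FPKM or below, and the difference in KO change of -0.89 (standard error 0.28, adjusted p = 0.049) was called.

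Of the lysyl hydroxylases, PLOD1 was at 69.6, 89.5 and 84.0 FPKM in MDA-MB-231 control and 114, 117 and 101 FPKM in KO cells, higher in every KO sample, with a log2 difference of 0.45 (standard error 0.11, adjusted p = 0.058). In MDA-MB-468 cells it was at 32.4 ± 2.71 FPKM in control and 31.0 ± 1.55 FPKM in KO cells (SD, n = 3), and the difference in KO change of -0.51 (standard error 0.14, adjusted p = 0.034) was called. PLOD2, which hydroxylates the collagen telopeptides, and PLOD3 were called in neither cell line. PLOD3 was at 26, 26.8 and 27.2 FPKM in MDA-MB-468 control and 29.6, 34.5 and 34.8 FPKM in KO cells, without overlap, with a log2 difference of 0.29 (standard error 0.07, adjusted p = 0.084).

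The difference in KO change between the cell lines was thus called for 10 of the 38 members, where 8.71% of all genes were. The change was higher in MDA-MB-468 for 7 of them (TNC, LAMB3, COL5A2, LOXL1, COL13A1, COL8A1 and COL12A1; 4.29% of all genes) and lower for 3 (COL6A2, LOXL4 and PLOD1; 4.41% of all genes). Scaling the samples to the same 75th percentile of FPKM left 7 and 3 members, and changed the split over all genes from 495 higher and 509 lower to 394 and 610. At an unadjusted p under 0.05 there were 21 members, where 31.5% of all genes reached it. Of the 10 members, COL6A2, COL8A1 and LOXL4 were at 0.07 FPKM or below in every MDA-MB-468 sample and COL5A2 at 0.19 FPKM or below in every MDA-MB-231 sample, so that for these a change could be measured in 1 cell line only. LOXL1, LOXL4 and PLOD1 were the calls that single samples decided: that of LOXL1 was lost without MDA-MB-231 KO replicate 1 and without MDA-MB-468 KO replicate 2, and those of LOXL4 and PLOD1 in 9 and 7 of 12 fits that left out 1 sample.

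**Figure D3:**
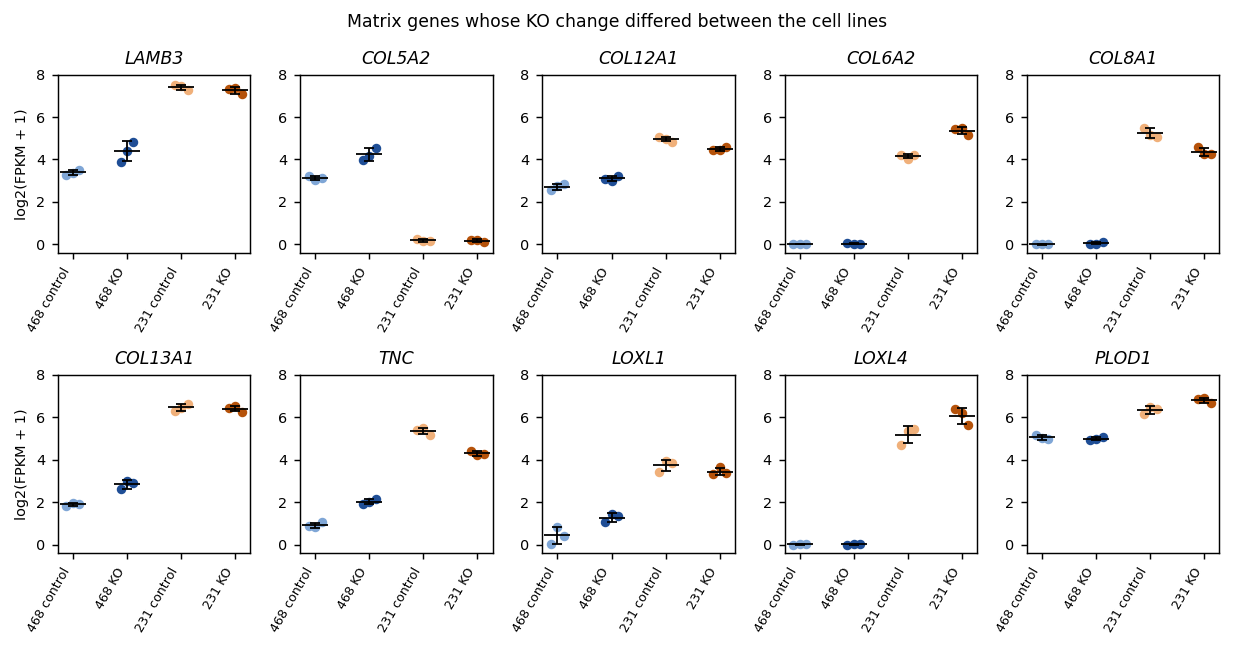
Level as log2(FPKM + 1) of the 10 matrix genes whose KO change differed between the cell lines, in control (light) and KO (dark) samples of MDA-MB-468 (blue) and MDA-MB-231 (orange); points are samples, lines and bars the mean and SD of 3. TNC moves toward the other cell line in both, from 0.92 to 2.03 in the former and from 5.34 to 4.30 in the latter, and COL6A2, COL8A1 and LOXL4 lie at the floor in MDA-MB-468.

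Genes that act on or with the members were followed in lists of their own. Of 24 genes for collagen biosynthesis and processing, 17 were analysed. In MDA-MB-468 KO cells 0 were called higher and 1 lower, the prolyl isomerase FKBP14 (log2 difference -0.51, adjusted p = 0.020), with 6 at an unadjusted p under 0.05, and the median of the list was -0.09, against 0.02 for all genes. In MDA-MB-231 KO cells 1 was called higher and 0 lower, the transglutaminase TGM2 (0.89, adjusted p = 0.0078), with 5 at an unadjusted p under 0.05 and a median of 0.09, against -0.01. The KO change differed between the cell lines for LEPREL1 (1.45), a prolyl 3-hydroxylase, and in the opposite direction for TGM2 (-0.73), the prolyl 4-hydroxylase subunits P4HB (-0.54) and P4HA2 (-0.51), with adjusted p from 0.0011 to 0.041. The call of P4HA2 was lost with the replicate block (adjusted p = 0.087) and held in 4 of 12 fits that left out 1 sample. The call of TGM2 did not hold with a pseudocount of 0.1 (adjusted p = 0.86). SERPINH1, the collagen chaperone HSP47, was called in neither cell line, with log2 differences of -0.11 (adjusted p = 0.24) and -0.05 (adjusted p = 0.70).

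Receptors for collagens and laminins numbered 12 analysed of 18. In MDA-MB-468 KO cells 0 were called, with 4 at an unadjusted p under 0.05, where 25.1% of all genes reached it. In MDA-MB-231 KO cells 7 reached an unadjusted p under 0.05, where 31.2% of all genes did. There 3 were called higher and 0 lower, against 2.39% and 1.31% of all genes. These were ITGB4, the integrin β4 chain, which binds laminin (0.78, adjusted p = 0.039), DDR1, a collagen receptor kinase (0.76, adjusted p = 0.0078), and BCAM, a receptor of laminin α5 (0.77, adjusted p = 0.0083). ITGB4 was called in 0 of 6 fits that left out 1 sample, and DDR1 and BCAM in 6 of 6. With the replicate block all 3 calls were lost (adjusted p = 0.092, 0.071 and 0.071, respectively). The medians of the list were 0.07 and 0.29, against 0.02 and -0.01 for all genes. The KO change of DDR1 (-0.70, adjusted p = 0.0012) and of the proteoglycan SDC1 (-0.77, adjusted p = 0.014) was lower in MDA-MB-468.

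Of 56 other matrix glycoproteins and proteoglycans, 24 were analysed. In MDA-MB-468 KO cells the laminin-related guidance protein NTN1 was called higher (0.97, adjusted p = 0.014) and the fibulin EFEMP1 lower (-0.68, adjusted p = 0.039), and 8 reached an unadjusted p under 0.05. Of 6 fits that left out 1 sample, NTN1 was called in 2, and EFEMP1 and FKBP14 in 1 each. In MDA-MB-231 KO cells 3 were called higher and 0 lower, the matrilin MATN2 (1.22, adjusted p = 0.015), the TGF-β binding protein LTBP3 (1.06, adjusted p = 0.036) and VWA1 (1.03, adjusted p = 0.049), and 12 reached an unadjusted p under 0.05. Of these MDA-MB-231 calls, MATN2 held in 3, LTBP3 in 1 and VWA1 in 0 of 6 fits that left out 1 sample. The medians of the list were 0.01 and 0.03. The KO change differed between the cell lines for 7 of the 24, where 8.71% of all genes were called, 4.29% higher and 4.41% lower. It was higher in MDA-MB-468 for CTGF (1.96, adjusted p = 0.0045), NTN1 (0.94, adjusted p = 0.00045), IGFBP7 (0.54, adjusted p = 0.015) and EMILIN2 (0.54, adjusted p = 0.019). It was lower for VWA1 (-1.04, adjusted p = 0.024), MATN2 (-0.95, adjusted p = 0.026) and LTBP3 (-0.77, adjusted p = 0.039). The replicate block lost these last 3 calls (adjusted p = 0.056, 0.057 and 0.061, respectively). Of 12 fits that left out 1 sample, VWA1, MATN2 and LTBP3 held in 9, 7 and 2, IGFBP7 and EMILIN2 in 9 each, and CTGF and NTN1 in 12 each. Over all 17 alternatives IGFBP7 was called in 13. Mean levels were low in 1 cell line for 3 of these genes. IGFBP7 and EMILIN2 were at 0.38 FPKM or below in MDA-MB-468, and NTN1 at 0.037 FPKM or below in MDA-MB-231.

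The only fibroblast marker analysed and the only endothelial or leukocyte marker analysed were each called in 1 cell line after KO. S100A4, at 749 to 818 FPKM in MDA-MB-468 control and 394 to 568 FPKM in KO cells, was called lower there (-0.77, adjusted p = 0.048, and 0.082 with the replicate block), and CD14, at 0.79 to 1.39 FPKM in MDA-MB-231 control and 2.65 to 4.90 FPKM in KO cells, was called higher (1.18, adjusted p = 0.029). Each of these calls held in 1 of 6 fits that left out 1 sample. Of the 7 markers of each cell line, 0 were called in MDA-MB-468, with 2 of its own and 1 of MDA-MB-231 at an unadjusted p under 0.05. In MDA-MB-231 CDH1, the epithelial cadherin, was called higher (0.54, adjusted p = 0.044) but in 0 of 6 fits that left out 1 sample and 4 of 12 alternatives in all, and 0 of its own markers were called, with 5 at an unadjusted p under 0.05. The KO change differed between the cell lines for CDH1 (-0.76, adjusted p = 0.014), CD14 (-1.75, adjusted p = 0.026), VIM (0.81, adjusted p = 0.019) and CAV1 (1.47, adjusted p = 0.012). Of 12 fits that left out 1 sample, CD14 held in 6, and CDH1, VIM and CAV1 in all 12. The part of these markers in the changes of the matrix genes was not tested.

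Promoter windows of 250 bases were at hand for 32 of the 38 members and were searched on both strands for motifs known from matrix genes. TATANA was found in 8 members (COL13A1, COL17A1, COL18A1, COL27A1, COL6A2, COL7A1, LAMA4 and TNC), where 21.1% of the 27305 genes with an entry hold it, and CCAAT in 9, where 37% do. The AP-1 motif TGANTCA was found in LAMA3 and LAMB3, where 8.06% of genes hold it, and the TEAD motif GGAATG in COL12A1 and THBS1, where 14.3% do. A match is a description of the letters in these windows and not a site.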

How the data were processed

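Cultured cells of 2 human breast cancer cell lines were profiled with a TruSeq stranded mRNA kit, 3 control and 3 SMARCA4 KO samples each. After trimming (Trimmomatic), two-pass alignment to hg19 (STAR) and quantification (RSEM), the authors left out genes whose mean or SD of FPKM was under 1 and deposited log2 values of FPKM + 1 for 11529 genes. Undoing the log gave a lowest gene mean of 1.07. Depth is unknown, and no counting interval was computed.

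Groups and replicate numbers came from the sample titles. KO and control samples were compared within a cell line by lmFit and eBayes of limma 3.58.1 (R 4.3.3) over all genes; the controls were compared likewise, and the difference in KO change was an interaction contrast over 12 samples. Exact permutation tests, two-sided, were used for ratios of FPKM. On simulated data with 200 genes changed by a log2 difference of 1.5, the fits recovered 191 to 197 of them with 3 to 7 false calls. On the log2(FPKM + 1) scale no member changed by that much after KO in either cell line, so recovery at the sizes seen was not measured.

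The members, lists and tests were chosen with earlier results of these data known. Named with values were members called in a KO comparison or in the difference between cell lines, the 3 largest changes not called in each cell line, the 5 highest means in each control, chain partners, called genes of the lists, and SMARCA4. LAMC1, PLOD3, COL9A2 and SERPINH1 were chosen after their values were seen. The values of 1 member are not reported here.

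The check of pairing correlated deviations of same-numbered samples from their group means across genes. The correlations were 0.28, 0.19 and 0.15 in MDA-MB-468 and -0.07, 0.08 and -0.16 in MDA-MB-231. Samples of unlike number reached 0.15 in MDA-MB-468 (control 3 with KO 2) and 0.25 in MDA-MB-231 (control 1 with KO 3). The check therefore does not settle the pairing in either cell line. Alternatives were a pseudocount of 0.1, genes with a mean log2 value over 2, an intensity trend, scaling to the same 75th percentile, replicate blocks, 1 fit of all samples and leaving out each sample. Gene positions are GENCODE release 44 on GRCh37, and sequences are from RefSeq (GRCh38.p14). Figures were drawn with matplotlib 3.10.9.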

Additional observations from a re-analysis of the deposited data

Results flagged for a closer look

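The KO change of 10 matrix genes differed between the cell lines by the interaction test of limma, at an adjusted p under 0.05 and an absolute difference over 0.5. Given as the change in MDA-MB-468 minus the change in MDA-MB-231 on the log2 scale, the difference was 2.16 for TNC, 1.15 for LAMB3, 1.13 for COL5A2, 1.12 for LOXL1, 1.01 for COL13A1, 0.93 for COL8A1 and 0.86 for COL12A1. It was -1.16 for COL6A2, -0.89 for LOXL4 and -0.51 for PLOD1. TNC, COL12A1, COL13A1, COL8A1 and LAMB3 were called in all 17 alternative fits, as was COL6A2, LOXL1 in 14, PLOD1 in 9 and LOXL4 in 6, and COL5A2 in the 16 that tested it. TNC and COL12A1 were the members among the 10 in which all KO samples lay above the controls of MDA-MB-468 and all below those of MDA-MB-231.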

How the results depend on the processing

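The direction of every called member held under every alternative. The MDA-MB-468 count of called members was 5, 3 with the replicate block of the titles, 0 with a block by the number after p in the descriptions (0 of all genes, 12 members at an unadjusted p under 0.05), and 0 to 7 when 1 sample was left out. The block by p number joined control 1 with KO 2 and control 2 with KO 3, which share that number. Control 3 and KO 1 have no partner by that number and were joined as the remaining pair. The labels do not settle which pairing holds in this cell line. The MDA-MB-231 count was 5, 8 in 1 fit of all 12 samples (COL4A5, COL5A1 and LOXL4 added), 2 to 4 when 1 sample was left out, and 0 with the replicate block (0 of all genes, 16 members at an unadjusted p under 0.05). Same-numbered samples of MDA-MB-231 also share the number after p. Whether they were paired cannot be told from the labels or from the correlations of their deviations. The difference between the cell lines kept 7 to 10 called members in every alternative, 8 with the replicate block, which lost LOXL4 and PLOD1, and the control comparison kept 29 to 35. The block changed no other count of members beyond 1.5 times. Over all members and alternatives, MDA-MB-468 lost 32 calls and gained 4, MDA-MB-231 lost 21 and gained 7, and they were 22 and 3 for the difference between them and 4 and 0 between the controls.

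Scaling to the same 75th percentile moved the median of all genes by less than 0.1. Depth is unknown, so members under 1 FPKM, 12 in MDA-MB-468 control cells, cannot be given a counting error. With 3 samples a group, exact permutation tests could not go below 0.1.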

Other observations

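Summed over the 7 other collagens, the MDA-MB-468 control samples held 5.22, 4.53 and 3.84 FPKM and the KO samples 6.82, 8.37 and 8.68 FPKM. The 6 fibrillar and fibril-associated collagens held 20.5, 20.4 and 21.0 FPKM in control and 29.7, 31.4 and 39.4 FPKM in KO samples of the same cell line. The 7 enzymes held 389, 449 and 446 FPKM in MDA-MB-231 control and 547, 542 and 472 FPKM in KO samples. These sums follow their most abundant genes, and were not tested.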
